A study of Sus scrofa with 6 samples.

Results

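The miR-30 family of microRNAs (miRNAs) was followed in cultured pig Sertoli cells with and without a vitamin C derivative. Its members were taken by name: every entry of the deposited table called miR-30a, b, c, d or e, with or without a 5p or 3p suffix, which gave 9 of 1645 entries. These were 5 products of the 5p arm of the hairpin (miR-30a-5p, miR-30b-5p, miR-30c-5p, miR-30e-5p and miR-30d, which is listed without a suffix and was taken as the main, 5p arm) and 4 products of the 3p arm (miR-30a-3p, miR-30b-3p, miR-30c-3p and miR-30e-3p). A further entry, miR-30c-1-3p, fell outside the name rule and is given beside the others. The rule uses names and no measured value.

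The samples were 6 small RNA libraries of immature Sertoli cells, the somatic cells of the seminiferous tubule that support germ cells, taken from fetal pig testes (80 to 90 days of gestation). All cells were grown in medium with 10% fetal bovine serum and settled for 6 h after seeding. The control group (3 libraries) was left untreated, and the AA2P group (3 libraries) was given 250 µM AA2P, the sesquimagnesium salt hydrate of L-ascorbic acid 2-phosphate and a stable form of vitamin C, for a time not given in the sources used here. Separate animals or cultures behind the libraries of a group are not stated, so the p-values measure only the spread between these libraries, which may be technical. The comparison addressed which miRNAs differ in these cells after AA2P.

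A miRNA hairpin is cut into a duplex, from which 1 strand, the guide, is loaded into an Argonaute protein while the other, the passenger, is mostly degraded. The guide finds its target transcripts through the seed near its 5' end. The 5p arms of the miR-30 family share their seed and so much of their target range. The family is best known from epithelial and mesenchymal biology: its 5p arms repress SNAI1, a driver of the epithelial-to-mesenchymal transition, and CCN2, a matrix-inducing growth factor. In the RefSeq annotation of the pig (Sscrofa11.1), 6 genes carry the family and lie as 3 neighbouring pairs: MIR30A with MIR30C-2, MIR30D with MIR30B, and MIR30C-1 with MIR30E, the last pair within NFYC, which encodes a subunit of a CCAAT-binding transcription factor. miR-30c-5p can come from both MIR30C-1 and MIR30C-2, so its level cannot be assigned to either gene.

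The 5p arms covered a wide range of levels and were higher in the AA2P libraries. In the whole family, 7 of 9 members rose, none fell and 2 did not pass (limma on log2(TPM + 1), Benjamini-Hochberg adjusted over all 433 tested entries, called at an adjusted p under 0.05). At an unadjusted p under 0.05 the counts were 9 higher and 0 lower, against 32.1 and 7.85% of all tested entries. By adjusted p, 24.7% of all tested entries were called, 19.9% higher and 4.85% lower. The median log2 fold change of the 9 members was 0.60, against 0.25 for all tested entries. Fold values below are ratios of mean TPM, which is a share of the library: in RNA pooled from many cells, a change in the cells present and a change in RNA per cell cannot be told apart.

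miR-30a-5p, which represses the autophagy gene BECN1, was the most abundant member and the third most abundant entry of the table. Its level was 62851, 64756 and 62768 TPM in the control libraries and 104743, 103969 and 93209 TPM in the AA2P libraries. The lowest AA2P library stood 1.44-fold above the highest control. The ratio of means was 1.59-fold and the log2 fold change 0.66 (SE 0.0680, limma adjusted p = 0.00238).

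miR-30d, which with its genomic neighbour miR-30b represses GALNT7, was next at 13882, 13070 and 13084 TPM in controls and 17735, 21060 and 16772 TPM with AA2P. The groups did not overlap, and AA2P library 2 stood apart from the other AA2P libraries on the high side. The rise was 1.39-fold (log2 fold change 0.47, SE 0.0979, limma adjusted p = 0.0182). It was the smallest change of the 5p arms, and it did not pass with replicate number as a block (limma adjusted p = 0.0591) with no filter on low entries (0.0609), or without control replicate 2 (0.0554) or control replicate 3 (0.0710).

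miR-30c-5p, a repressor of CCN2 in the heart, stood at 7255, 6210 and 6938 TPM in controls and 11040, 13291 and 9918 TPM with AA2P, 1.68-fold higher (log2 fold change 0.74, SE 0.125, limma adjusted p = 0.00962). miR-30e-5p had the largest change of the family, from 1369, 1125 and 1316 TPM to 2467, 2760 and 1993 TPM, 1.90-fold higher (log2 fold change 0.91, SE 0.143, limma adjusted p = 0.00685). In both, control library 2 was the lowest control and AA2P library 2 the highest AA2P library.

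miR-30b-5p was the scarcest 5p arm and the one that did not pass. It stood at 452, 518 and 488 TPM in controls and 824, 573 and 676 TPM with AA2P. The groups did not overlap, but the lowest AA2P value was only 1.11 times the highest control value. Its log2 fold change was 0.49 (95% interval 0.14 to 0.84, limma adjusted p = 0.0533). The place of library 2 was opposite to that in miR-30c-5p and miR-30e-5p: control library 2 was the highest control and AA2P library 2 the lowest AA2P library. Without AA2P replicate 2 miR-30b-5p passed (log2 fold change 0.62, limma adjusted p = 0.0214).

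**Figure D1:**
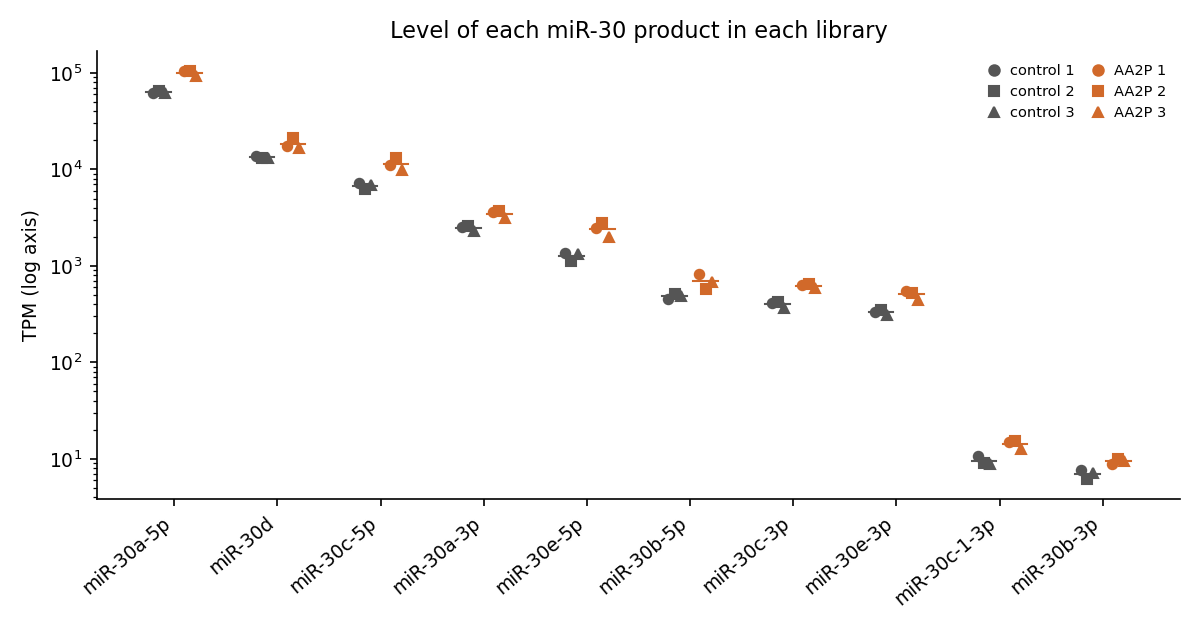
Level of each miR-30 product in TPM (log axis) in each of the 6 libraries, ordered by mean; grey marks are control and orange marks AA2P libraries, the shape gives the library number and the line the group mean. miR-30a-5p reached 104743 TPM, miR-30b-3p stayed between 6.23 and 9.84 TPM, and for each product all AA2P libraries lay above all controls.

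The 3p arms followed the same direction at lower levels. miR-30a-3p, itself among the 40 most abundant entries (rank 36), was the main passenger at 2536, 2568 and 2321 TPM in controls and 3586, 3696 and 3160 TPM with AA2P, 1.41-fold higher (log2 fold change 0.49, SE 0.0861, limma adjusted p = 0.0106). Its level was above that of the guides miR-30e-5p and miR-30b-5p in all 6 libraries.

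miR-30c-3p stood at 415, 422 and 370.4 TPM in controls and 627, 643 and 594 TPM with AA2P (1.54-fold, log2 fold change 0.63, SE 0.0805, limma adjusted p = 0.00427). It had the largest change of the 3p arms and the smallest spread among AA2P libraries of the whole family, with a coefficient of variation of 4.08%. miR-30e-3p went from 334, 353 and 311 TPM to 549, 525 and 446 TPM (1.52-fold, log2 fold change 0.60, SE 0.104, limma adjusted p = 0.0101). Both passed the test, and in both the lowest AA2P library was at least 1.26 times the highest control.

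miR-30b-3p was the scarcest member, at 7.67, 6.23 and 7.19 TPM in controls and 8.78, 9.84 and 9.57 TPM with AA2P, and did not pass (log2 fold change 0.38, 95% interval 0.07 to 0.68, limma adjusted p = 0.0756). Its level still stood for about 198 reads or more in each library. Both arms of the miR-30b hairpin thus missed the threshold, and both had the same direction as the rest. miR-30c-1-3p, the passenger of MIR30C-1 that the name rule left out, stood at 10.7, 9.09 and 8.84 TPM in controls and 15.0, 15.1 and 12.8 TPM with AA2P (log2 fold change 0.54, limma adjusted p = 0.0265). Its call ended in 12 of 19 alternatives.

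For all 9 members every AA2P library lay above every control. The same held for 40.4% of all tested entries, and the members' count is to be read against that share. By level, the products ran from miR-30a-5p through miR-30d, miR-30c-5p, miR-30a-3p, miR-30e-5p, miR-30b-5p, miR-30c-3p, miR-30e-3p and miR-30c-1-3p to miR-30b-3p. Neighbours in this order had separate ranges within each group, except miR-30b-5p and miR-30c-3p, which overlapped with AA2P.

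**Figure D2:**
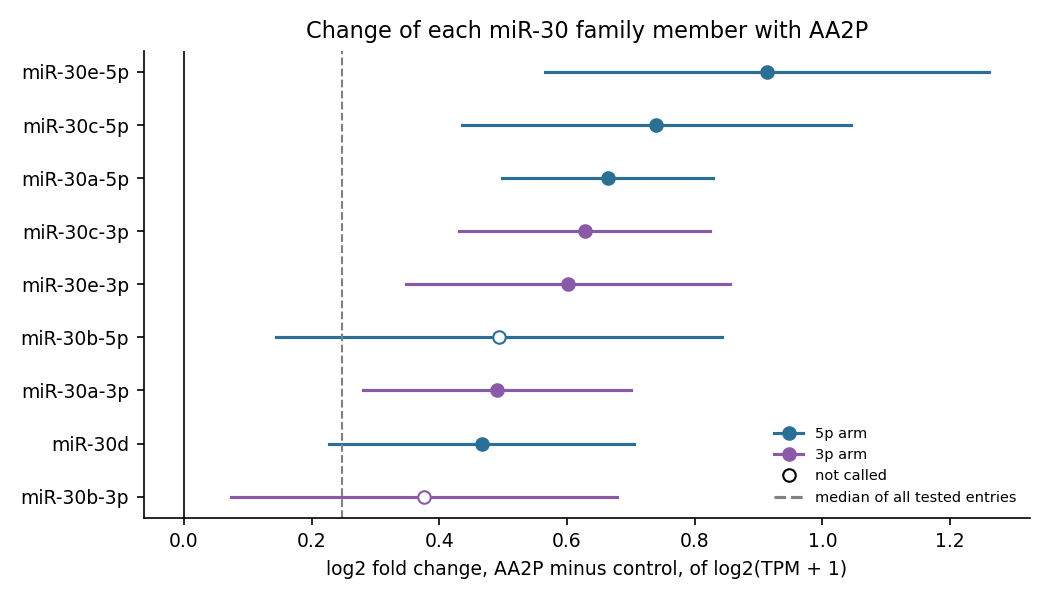
Log2 fold change of each family member, AA2P minus control, on the log2(TPM + 1) scale, with its 95% interval from limma; blue is a 5p arm, purple a 3p arm, an open circle did not pass, and the dashed line is the median of all tested entries (0.25). Changes run from 0.38 for miR-30b-3p to 0.91 for miR-30e-5p, and the intervals of miR-30d, miR-30b-5p and miR-30b-3p reach below the dashed line.

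Summed, the 5p arms made up 8.58, 8.57 and 8.46% of all TPM in the controls and 13.7, 14.2 and 12.3% in the AA2P libraries, or 8.54% ± 0.0667 and 13.4% ± 0.992 (SD, n = 3 per group). The control libraries were nearly level, and the spread among AA2P libraries was wider. The 3p arms took 0.322% ± 0.0182 and 0.462% ± 0.0358. These sums were not tested, since they are scores over the members.

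In the same libraries miR-21-5p, the entry that dominates the table, made up 52.1% ± 0.876 of a control library and 41.1% ± 3.70 of an AA2P library (SD, n = 3 each). All values of a library add to the same total, so a smaller share of miR-21-5p goes with larger shares of other entries. Shares alone do not tell which of them changed in amount. Of the TPM other than miR-21-5p, the 5p arms took 17.6, 18.2 and 17.6% in controls and 23.7, 22.5 and 21.9% with AA2P. The groups stayed apart on this measure, and the ratio of means was 1.27-fold in place of 1.57-fold.

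**Figure D3:**
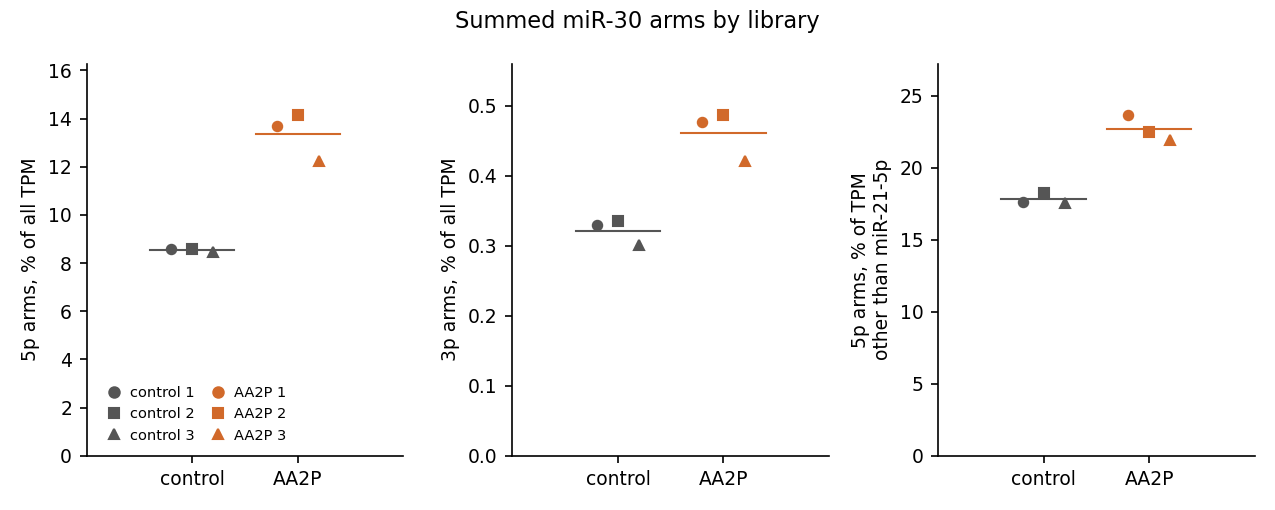
Summed miR-30 arms in each library, as percent of all TPM for the 5p arms (left) and the 3p arms (middle) and as percent of the TPM other than miR-21-5p for the 5p arms (right); grey is control, orange AA2P, lines are group means and axes start at 0. The 5p arms went from 8.54 to 13.4% of all TPM, and from 17.8 to 22.7% with miR-21-5p left out.

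The size of the single changes depended on the scaling of the libraries, while their direction did not. All 9 members stayed higher with AA2P under scaling by a trimmed mean of ratios, by the median of ratios or by quantiles. The same held for totals without miR-21-5p and totals without the 10 most abundant entries. Totals without the miR-30 family raise every change, because the family's share is larger with AA2P, so that scaling adds no support. miR-30a-5p, miR-30c-5p and miR-30e-5p were called in all 19 alternatives run, these scalings included, with adjusted p-values up to 0.0396. For miR-30a-5p the log2 fold change ran from 0.21 with quantiles, which fix the highest ranks, to 0.74 with the family left out of the totals. With quantiles its value in each library is set by its rank. The small limma adjusted p there (5.28e-06) therefore does not measure its spread between libraries and adds no support. For miR-30e-5p the range over all alternatives was 0.62 to 1.04.

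The remaining calls were less settled. With totals without miR-21-5p, miR-30d (log2 fold change 0.17, limma adjusted p = 0.125), miR-30a-3p (0.19, 0.132) and miR-30e-3p (0.31, 0.0843) lost their calls, so that 4 members were called where 9.24% of all tested entries were called higher. miR-30d and miR-30a-3p also lost them under trimmed-mean (limma adjusted p = 0.220 and 0.104) and median-of-ratios scaling (0.172 and 0.0816), and miR-30c-3p lost its call under quantile normalization (0.0762). miR-30b-5p gained a call in 5 of 19 alternatives, totals without the miR-30 family among them.

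Under trimmed-mean scaling 7 of 9 members kept groups that did not overlap, where 19.9% of all tested entries did so with AA2P higher. The counts were also 7 under median-of-ratios scaling (20.1% of all tested entries), quantile normalization (20.1%) and totals without miR-21-5p (18.7%). In each of these 4 the members whose groups overlapped were the arms of miR-30b. Their log2 fold changes under trimmed-mean scaling were 0.22 for miR-30b-5p and 0.13 for miR-30b-3p.

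**Figure D4:**
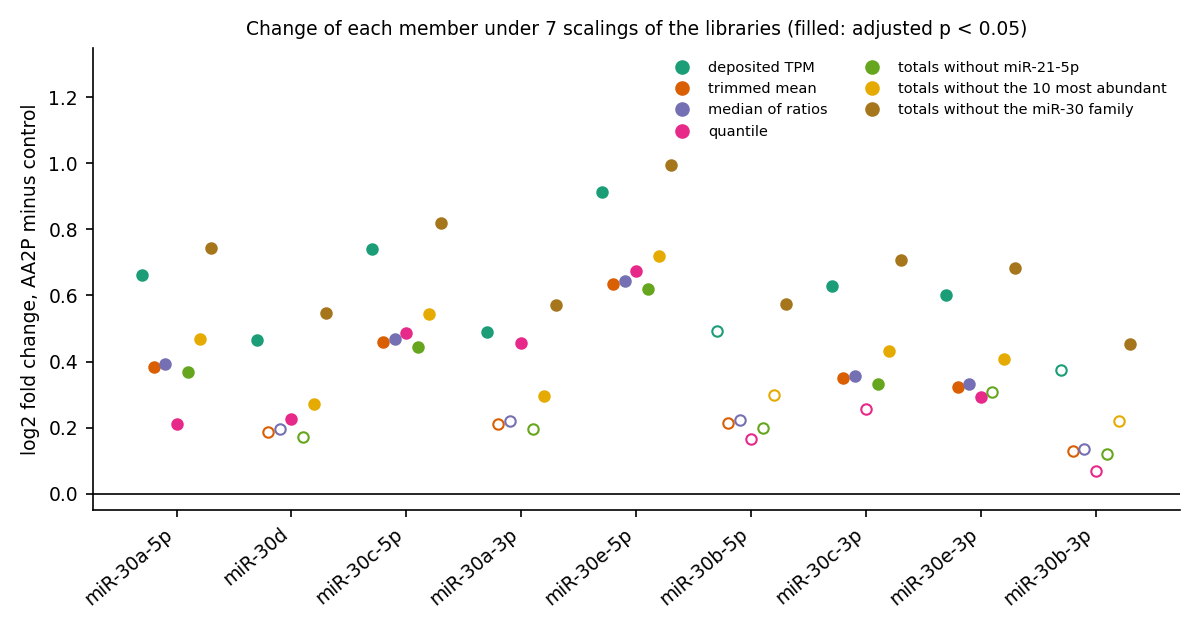
Log2 fold change of each member, AA2P minus control, with the deposited TPM and under 6 other scalings; a filled mark has a limma adjusted p under 0.05, an open mark does not. miR-30a-5p, miR-30c-5p and miR-30e-5p are filled throughout, miR-30d drops to 0.17 with totals without miR-21-5p, and no mark lies below 0.

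Shares within the family do not depend on the library's scaling. miR-30a-5p made up 73.2, 75.6 and 74.2% of the summed 5p TPM in controls and 76.6, 73.4 and 76.0% with AA2P, and the groups overlapped (two-sided exact permutation test, p = 0.4, adjusted over 5 members 0.6). miR-30d went from 15.6% ± 0.484 to 13.8% ± 0.961 and miR-30e-5p from 1.49% ± 0.153 to 1.79% ± 0.161 (SD, n = 3 per group). Neither overlapped between groups, each with p = 0.1 by the two-sided exact permutation test, the smallest value 3 against 3 libraries allow (adjusted 0.25). miR-30c-5p (7.97 and 8.51%) and miR-30b-5p (0.569 and 0.519%) overlapped, both at an exact permutation p of 0.6.

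Pairs of 5p arms, of which all 10 were compared, use the same values as the shares above and are not a second observation. With AA2P the log2 ratio of miR-30d to miR-30e-5p was lower by a difference of -0.45, that of miR-30d to miR-30c-5p by -0.27 and that of miR-30c-5p to miR-30e-5p by -0.17. In these 3 pairs the groups did not overlap (two-sided exact permutation p = 0.1 each, adjusted over the pairs 0.333). The other 7 pairs overlapped. Among them was miR-30d over miR-30b-5p, the products of neighbouring genes, with a log2 ratio of 4.78 ± 0.145 in controls and 4.75 ± 0.400 after AA2P (SD, n = 3 each). With 3 libraries a group this exact test cannot reach 0.05 for any pair, so it does not say whether members differ in response.

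**Figure D5:**
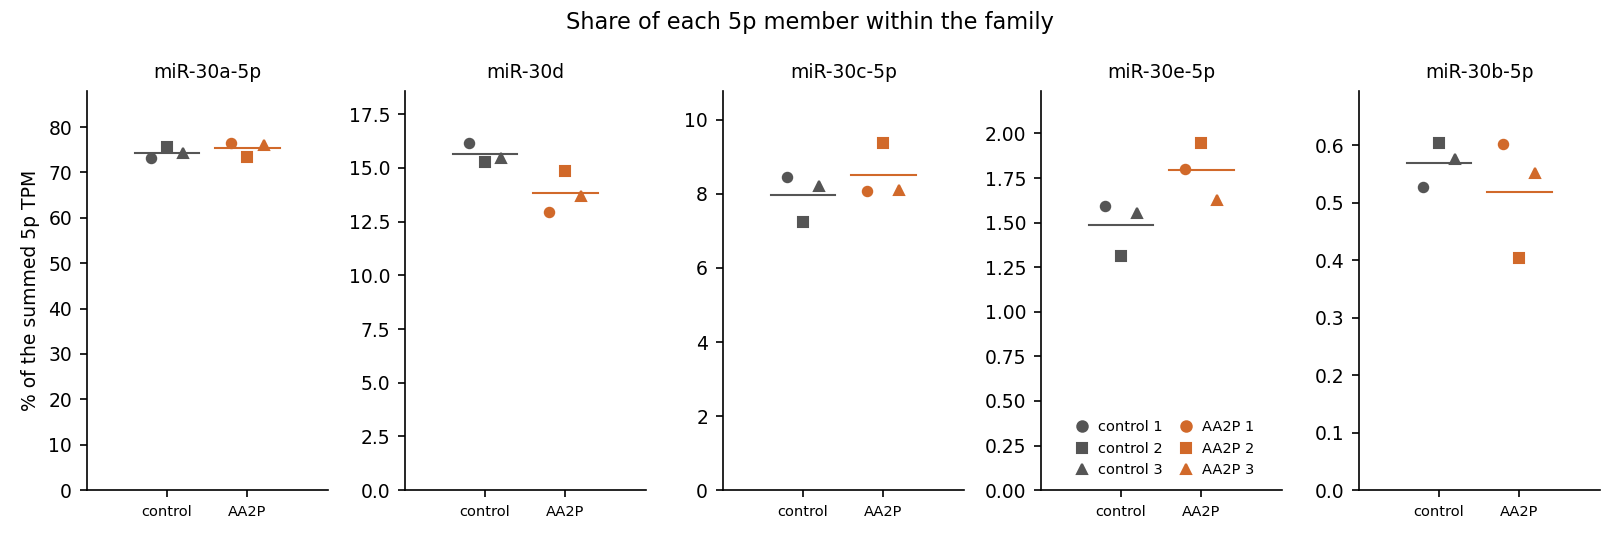
Share of each 5p member in the summed 5p TPM of a library, in percent, with an axis from 0 of its own in each panel; grey is control, orange AA2P, the shape gives the library number and the line the group mean. miR-30d lies lower (15.6 and 13.8%) and miR-30e-5p higher (1.49 and 1.79%) with AA2P without overlap, and the other members overlap.

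The balance of the arms differed strongly between hairpins. The 5p arm exceeded the 3p arm 25.7-fold for miR-30a in controls (28.9-fold with AA2P), 70.0-fold for miR-30b (74.2-fold), 17.0-fold for miR-30c (18.3-fold) and 3.84-fold for miR-30e (4.74-fold). For miR-30c the 3p entry may hold the product of 1 of its genes while the 5p entry can hold that of both. miR-30e thus had the most even arms, and its 3p product stood at 332.7 ± 20.8 TPM in controls beside 1270.0 ± 128 TPM of its 5p product (SD, n = 3).

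With AA2P the log2 ratio of 5p to 3p of miR-30e went from 2.03, 1.67 and 2.08 to 2.16, 2.39 and 2.16, and that of miR-30a from 4.63, 4.66 and 4.76 to 4.87, 4.81 and 4.88. In both the groups did not overlap, with the higher ratio after AA2P, as for 20.5% of the 39 hairpins fitted. Neither passed in the limma fit over 39 hairpins (change 0.31, 95% interval -0.01 to 0.63, adjusted p = 0.282 for miR-30e; change 0.17, 95% interval -0.08 to 0.42, adjusted p = 0.483 for miR-30a). The change for miR-30c was 0.11 (adjusted p = 0.787). Without control replicate 2 the change was 0.18 for miR-30e and 0.01 for miR-30c, and without AA2P replicate 2 that of miR-30c was 0.02. In that fit limma called 0 hairpins (0%), and 4 had an unadjusted p under 0.05, none of them of the miR-30 family. The median change over the 39 hairpins was 0.10 in the same direction. miR-30b, whose 3p arm is too scarce for that fit, had a change of 0.12 among 60 hairpins with arms of at least 1 TPM (adjusted p = 0.846), and miR-30d has no 3p entry among the members.

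The known miRNAs outside the family with a profile over the 6 libraries closest to that of miR-30a-5p were miR-200b, miR-9 (listed 3 times with the same values) and miR-22-5p. The measure was the root mean square difference of centred log2(TPM + 1) values, over 204 known entries with a mean of at least 10 TPM or of the family: 0.0744 for miR-200b, 0.0752 for miR-9 and 0.0776 for miR-22-5p. In the family, miR-30c-3p (0.0599) and miR-30e-3p (0.0639) were the closest of all and miR-30a-3p came at rank 11, while miR-30d (rank 25), miR-30c-5p (0.127), miR-30e-5p (0.184) and miR-30b-5p (0.183) ranked 23 to 52. The passenger arms of miR-30c and miR-30e were thus nearer to miR-30a-5p over these libraries than their own guides, while miR-30b-3p (0.189, rank 56) was the farthest family member and slightly farther than miR-30b-5p. The libraries' scaling is shared by all profiles.

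The other miRNAs known to repress SNAI1, SNAI2, ZEB1 or ZEB2 formed a list of 12, of which 9 were listed by name and 7 tested. Of these 3 rose, where 19.9% of all tested entries did, and 0 were called lower by limma, and the median log2 fold change was 0.43 against 0.25 for all tested entries. miR-200b rose from 1523, 1448 and 1517 TPM to 2645, 2732 and 2179 TPM (limma adjusted p = 0.00443), with its cluster partner miR-429 (log2 fold change 1.05, adjusted p = 0.00222) and miR-34c, a p53 target (0.43, adjusted p = 0.0464). miR-200b and miR-429 were called in all 19 alternatives, while the call of miR-34c ended in 13. miR-141, also of the miR-200 family, stood at 47.7, 45.3 and 45.4 TPM in controls and 63.5, 20.5 and 50.9 TPM with AA2P and did not pass (log2 fold change -0.18, limma adjusted p = 0.735). miR-101, also a repressor of EZH2, stood at 1663 ± 68.1 and 1855 ± 355 TPM and miR-34a at 295 ± 33.8 and 384 ± 32.2 TPM (SD, n = 3 per group), and neither passed (limma adjusted p = 0.483 and 0.0577). In level each of these lay below the summed miR-30 5p arms, at 85360 and 133676 TPM, a sum that is mostly miR-30a-5p. Singly, miR-200b (1496 and 2519 TPM on average) lay below miR-30a-5p, miR-30d and miR-30c-5p. It lay above miR-30e-5p (1270 and 2407 TPM on average) and miR-30b-5p.

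Depth and culture makeup were checked from the same table. Read off the step of the low values, the depth was 25.8 to 36.0 Mreads (counted reads, M for mega) a library, so that the floor of 3 reads was 0.0834 to 0.116 TPM. The transcripts that define Sertoli cells are not measured in small RNA. The labelled cell type was checked only against miRNAs of other cells and a short list of gonadal somatic miRNAs. Of 6 muscle and myoid miRNAs 4 were tested and 0 called by limma, where 24.7% of all tested entries were called. A count this small does not show whether the share of such cells changed. The summed level of the 6 was 168 to 227 TPM in controls and 219 to 307 TPM with AA2P. Most of it was miR-1, also on the repressor list (153 and 225 TPM on average, log2 fold change 0.55, limma adjusted p = 0.0746). The other tested ones averaged 34.6 and 30.8 TPM (miR-143-3p), 6.70 and 8.68 (miR-133a-3p) and 1.28 and 1.89 (miR-145-5p). The summed level of 7 blood and endothelial miRNAs was 97.6 to 110 and 87.4 to 119 TPM, nearly all of it miR-126-3p (101.5 and 96.4 TPM on average). The other tested marker of that list, miR-142-3p, known from leukocytes, was called higher at 0.43, 0.5 and 0.59 TPM in controls and 2.68, 1.47 and 1.79 TPM with AA2P, and it entered the test only through its AA2P values. Untested, miR-223, a miRNA of myeloid cells, was at 0.04, 0 and 0 TPM in controls and 5.40, 0.06 and 0 TPM with AA2P, and miR-142-5p at 0.417 and 1.18 TPM on average. Of 6 germ cell miRNAs 2 were listed (summed level 169 to 183 and 213 to 283 TPM) and 1 was tested. That was miR-34c, also on the repressor list, which was called higher but lost its call in 13 of 19 alternatives. Of 5 gonadal somatic miRNAs 2 were tested and 0 called, against the same 24.7% of all tested entries (summed level 1052 to 1174 and 1115 to 1256 TPM). Nearly all of this sum was miR-140-3p (1106 and 1178 TPM on average). The others were scarce: miR-132 averaged 2.36 and 4.40 TPM, miR-202-5p 0.657 and 0.517, miR-212 0.553 and 0.790 and miR-202-3p 0 and 0.0367. The part of other cells in the changes of the miR-30 family was not tested.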

How the data were processed

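Small RNA libraries of 3 control and 3 AA2P samples, grouped by their labels, were analysed from 1 deposited table of TPM with 1645 entries. Per the submitters' processing notes Bowtie was used, with no version. Not given in the sources used here are the genome build, the miRBase release and how reads shared by near-identical miRNAs, such as these, were treated. Of the TPM values under 10 that the authors deposited, 98.8 to 100% in a library lay within 0.0051 TPM of a whole multiple of 1 step, so levels of different miRNAs were compared as read numbers with no length term. The values are rounded to 2 decimals and were not turned back into counts. Floors cover counting error only.

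The 433 entries that reached 1 TPM in 3 or more of the 6 libraries were tested as log2(TPM + 1), which understates changes of low entries, with limma 3.58.1 in R 4.3.3 (2 groups, mean-variance trend, two-sided, Benjamini-Hochberg). All 9 members passed this filter. Arm ratios were fitted over hairpins with both arms at a mean of 10 TPM or more. Shares and pairs were compared by exact permutation over libraries. The scripts were tested on simulated data. Alternatives changed the pseudocount, the filter, the scaling, the trend, the entries, the block and the libraries. Named were the members, the 5 entries most like miR-30a-5p in profile, and up to 4 of the most abundant miRNAs of the repressor list. miR-429 was named to complete the calls of that list, after its values were seen. Named for their values, after these were seen, were miR-141, miR-142-3p, miR-142-5p, miR-223, miR-126-3p and miR-21-5p. The same holds for the single muscle, myoid and gonadal somatic miRNAs. Members and lists were chosen with earlier results of these data known.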

Additional observations from a re-analysis of the deposited data

How the results depend on the processing

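The count of members called higher by limma was 7, and 4 with totals without miR-21-5p. In the other 18 alternatives it was 5 to 9, with 5 under trimmed-mean and median-of-ratios scaling. The 9 came with totals without the miR-30 family, which raise every change. No alternative called a member lower. With replicate number as a block the count of members called higher was 6. The deviations of same-numbered libraries from their group means correlated at 0.29, 0.06 and 0.18, not all over 0.1, so the number was not taken to pair them, which does not show that nothing else is shared. Over all tested entries the calls were then 52 higher and 11 lower in place of 86 and 21, and they were 48 and 50 under trimmed-mean scaling, 40 and 43 with totals without miR-21-5p, 48 and 9 with no filter and 55 and 8 without control replicate 3. The log2 fold change of the summed 5p arms was 0.64 and moved to 0.37 with trimmed-mean, 0.37 with median-of-ratios scaling and 0.35 with totals without miR-21-5p, and that of the 3p arms from 0.52 to 0.24, 0.25 and 0.22. These scalings put the median of all tested entries at 0.00, 0.01 and -0.02 in place of 0.25. Leaving out 1 library turned the sign of small differences that were not called: the share of miR-30b-5p (-0.091 to 0.0077 points), the ratio of miR-30a-5p to miR-30c-5p (-0.13 to 0.014) and that of miR-30d to miR-30b-5p (-0.25 to 0.14). The cause was not tested. A mean of at least 10 TPM leaves miR-30b-3p untested. Outside the family, miR-101, not called at 0.14, turned to -0.14 with trimmed-mean, -0.13 with median-of-ratios, -0.18 with quantile scaling, -0.15 with totals without miR-21-5p and -0.054 without the 10 most abundant, and ran from -0.0020 to 0.27 with 1 library left out; miR-34a turned to -0.012 with quantiles, and miR-141 ran from -0.49 to 0.30 with 1 library left out, the last without AA2P replicate 2.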
